A study of Mus musculus with 7 samples.

Results

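The genes described here encode the subunits of the mitochondrial respiratory chain, measured in whole liver of mice with and without a deletion of Rbpj. They were chosen by their names on the array alone: names that begin with Ndufa, Ndufb, Ndufc, Ndufs or Ndufv and a number (complex I), Sdha to Sdhd (complex II), names that begin with Uqcr (complex III), with Cox and a number from 4 to 8 (complex IV), or with Atp5 (complex V). The rule found 85 genes among the 35715 gene names of the array, on 117 probes. Complex I had 37 of them, complex II 4, complex III 8, complex IV 18 and complex V 18. To be tested, a gene needed a probe that was well above background in every animal of either genotype, which left 82 of the 85 genes and 18771 genes in all. All 82 were well above background on all 7 arrays, so that none passed through 1 genotype only. The other 3, Cox7b2, Cox8b and Cox8c, were well above background on no array.

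The respiratory chain lies in the inner mitochondrial membrane and turns the oxidation of nutrients into ATP. Complex I takes electrons from NADH and complex II from succinate, complex III passes them from ubiquinone to cytochrome c, and complex IV hands them to oxygen. Complexes I, III and IV pump protons as they do so, and complex V, the ATP synthase, lets the protons flow back to make ATP. Most subunits are encoded in the nucleus and a few in the mitochondrial DNA. Hepatocytes, which make glucose, urea and bile acids, are rich in mitochondria.

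The Rbpj+/+ group held 4 AlfpCre- Rbpj flox/flox mice and the Rbpj-/- group 3 AlfpCre+ Rbpj flox/flox mice, all untreated, on a C57BL/6J background and 4 weeks old. Both groups carry the floxed allele, and only the second carries Cre, which a combination of albumin and alpha-fetoprotein control elements drives in the embryonic liver. RBPJ is the DNA-binding protein through which Notch receptors act on their target genes in the making of bile ducts, and the Rbpj-/- mice serve as a model of cholestasis. Each animal gave 1 array with 1 dye, without pooling, and the question is which transcripts differ between the genotypes. The 4 Rbpj+/+ arrays lie in one row of the slide and the 3 Rbpj-/- arrays in the other, so row and genotype cannot be told apart.

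Both probes of Rbpj gave lower values in Rbpj-/- liver, with log2 fold changes of -1.13 (limma, adjusted p = 0.0115) and -1.63 (adjusted p = 0.0723). Rbpj+/+ replicate 2 and Rbpj-/- replicate 1 had brighter dim probes, with median intensities of 19.7 and 31.2 against 5.40 to 8.80 on the other arrays. Between 42.4% and 65.7% of the spots were well above background, and no spot was saturated. Defining hepatocyte genes were well above background on all arrays, 7 of 7. Of these, 4 were called lower in Rbpj-/- liver by limma (Alb, Apoa1, Ttr and Serpina1a), beside 19.6% of all tested genes. These 4 are bright, with mean log2 levels between 8 and 10 relative to the 75th percentile. Of the genes outside the chain, 38.1% at levels from 8 to 9 and 72% from 9 to 10 were called lower. Not called were Hnf4a (log2 fold change -0.32), Tat (0.52) and Cps1 (0.94). The sum of the 7 relative linear values, in which the brightest genes weigh most, ranged from 3131 to 4093 in Rbpj+/+ and from 1948 to 2334 in Rbpj-/- liver. After quantile normalization 1 of the 7 was called lower and 2 were called higher. Alb and Serpina1a, the brightest, were then at -0.10 and -0.09, and Apoa1 and Ttr at -0.43 and -0.40. Genes of other cells moved as well: 4 of 5 macrophage genes, 5 of 6 stellate cell genes and 5 of 5 proliferation genes were called higher, and 4 of 5 lymphocyte genes lower. Over all genes 14.6% were called higher and 19.6% lower. Other lists were mixed or had fewer calls. Higher were 2 of 4 cholangiocyte, 2 of 4 neutrophil and 1 of 5 endothelial genes. Lower were 1 of 4 neutrophil, 1 of 5 endothelial and 1 of 4 erythroid genes. In RNA of a whole organ, fewer cells of a type and less RNA per cell cannot be told apart, and the part of these shifts in the values below was not tested.

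In these livers the chain genes were slightly lower as a class on the authors' stated scale, and almost level once the arrays were given the same distribution (no test was made over the class). Levels are log2 intensities relative to the 75th percentile of the array, called the percentile shift, and a gene was called at an adjusted p under 0.1 by limma. On this scale 9 of 82 genes (11%) were lower in Rbpj-/- liver and 0 were higher, beside 34.2% of all tested genes called, 19.6% as lower and 14.6% as higher. At an unadjusted p under 0.05, 23 genes were lower and 1 was higher, together 29.3% of the members beside 38.9% of all genes. The log2 fold change was negative for 72 of the 82 genes, beside 10851 of all 18771 genes. The median over the members was -0.34 (quartiles -0.52 and -0.20), beside a median of -0.13 over all genes. The median member was thus at 79.0% of its Rbpj+/+ value, and the median of all genes at 91.6%. After quantile normalization, which gives all arrays the same distribution, 2 genes were called lower and 1 higher, beside 31.8% of all genes called, 15.2% as lower and 16.6% as higher. The median over the members was then -0.07, beside -0.04 over all genes. Of the members' log2 fold changes 56 were negative, beside 9888 of all 18771 genes. The 95% interval of the log2 fold change lay within -1 and 1 for 55 members on the percentile shift and for 78 after quantile normalization. Over all 18771 genes it did so for 8853 and 8774.

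**Figure D1:**
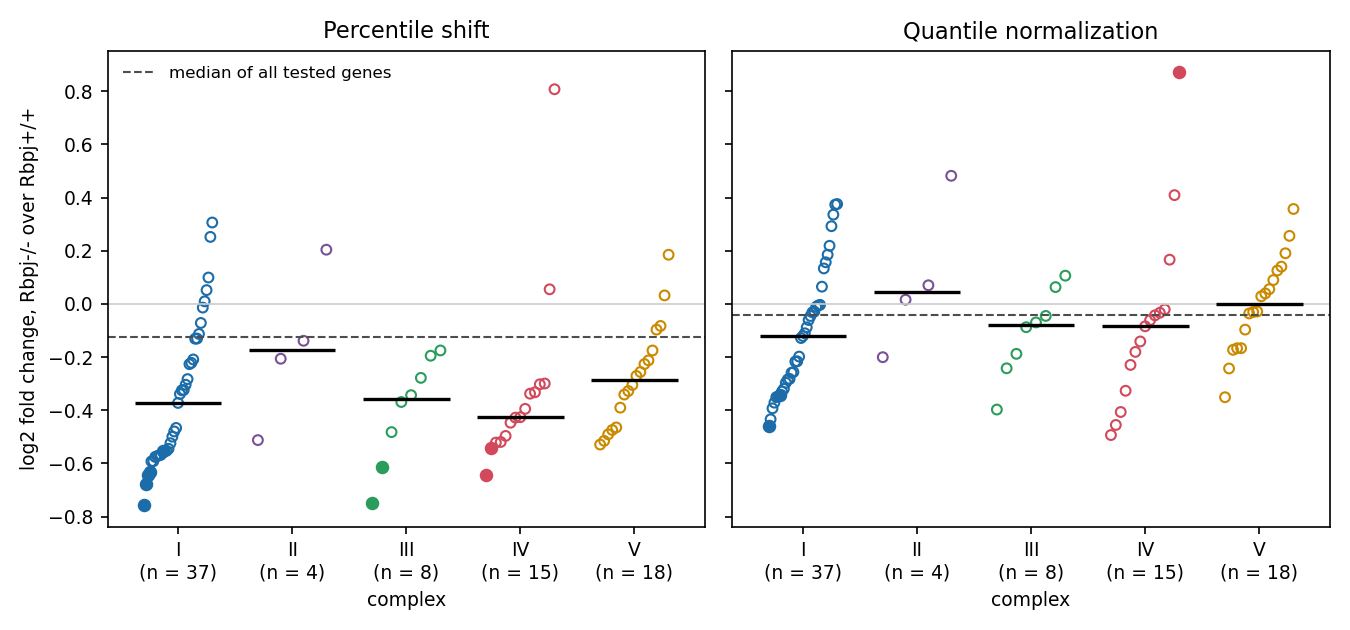
Log2 fold changes (Rbpj-/- over Rbpj+/+) of the 82 tested genes by complex, with the percentile shift on the left and quantile normalization on the right. Each point is a gene, filled points passed limma at an adjusted p under 0.1, black bars are the medians of the complexes, and the dashed line is the median of all tested genes. On the left all medians lie below the dashed line, and on the right those of complexes II and V lie above it.

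The number of genes called lower rested on single animals. Without Rbpj+/+ replicate 2 it was 37 of 82 (45.1%), above the 23.2% of all genes. It was 14 without Rbpj-/- replicate 3 (17.1% beside 17.1%) and 5 without Rbpj+/+ replicate 1 (6.10% beside 16.9%). It was 1 without Rbpj+/+ replicate 4 (beside 14% of all genes) and 1 without Rbpj-/- replicate 2 (where 20.6% of all genes were called in either direction). It was 0 without Rbpj+/+ replicate 3 (beside 11.6%) and 0 without Rbpj-/- replicate 1 (beside 12.9%), and in both of these settings Cox7a1 was called higher. Without the 2 arrays with brighter dim probes, a setting chosen after the data were seen, 13 genes were called lower (15.9% beside 17.6% of all genes), 8 of them among the 9.

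Over the 82 genes the Rbpj+/+ animals had median levels of 6.83, 6.51, 7.07 and 7.02, and the Rbpj-/- animals 6.24, 6.63 and 6.77. Rbpj+/+ replicate 2 was the lowest of its group, and its value lay below those of 2 Rbpj-/- arrays, so that the groups overlapped. After quantile normalization the medians were 6.68, 6.72, 6.77 and 6.79 in Rbpj+/+ and 6.57, 6.70 and 6.87 in Rbpj-/- liver, with the lowest and the highest array both in the Rbpj-/- group. In each of the 5 complexes Rbpj+/+ replicate 2 and Rbpj-/- replicate 1 had the lowest median of their group on the percentile shift. The groups did not overlap for 14 of 82 genes, all of them lower in Rbpj-/- liver, while 21.2% of all genes were lower and 15.4% higher without overlap. After quantile normalization they did not overlap for 10 lower and 4 higher genes, beside 19.1% and 19.4%.

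**Figure D2:**
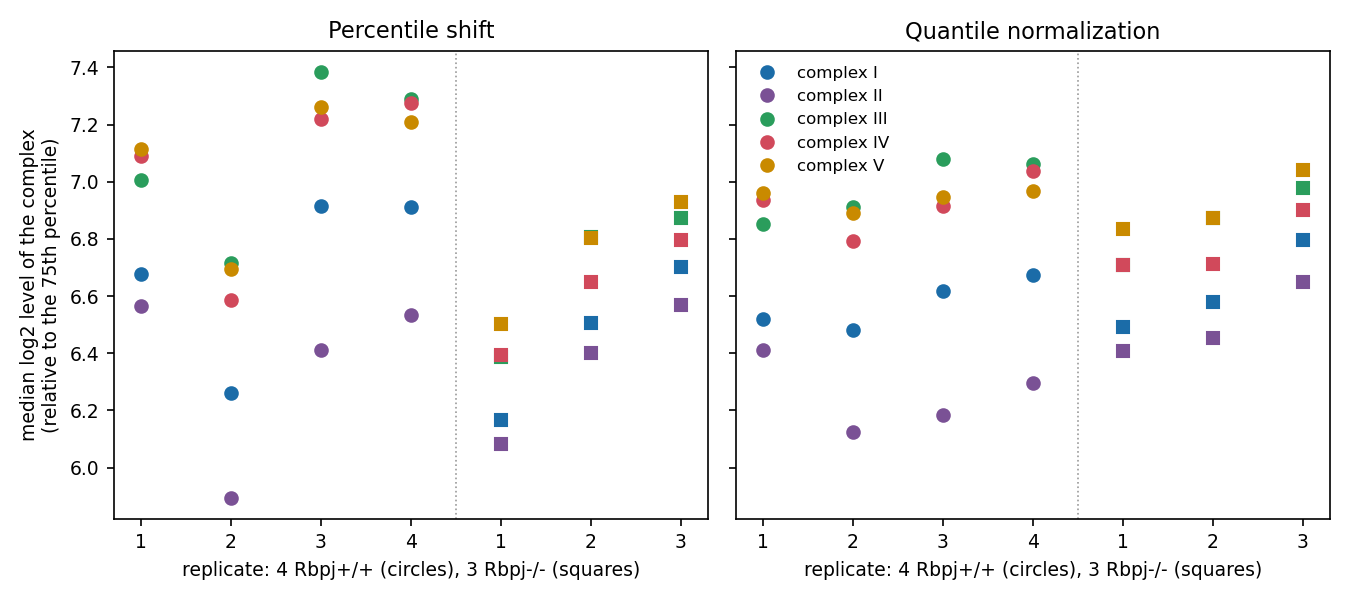
Median log2 level of the tested genes of each complex on each array, relative to the 75th percentile. Circles are the 4 Rbpj+/+ arrays and squares the 3 Rbpj-/- arrays, with the percentile shift on the left and quantile normalization on the right. On the left Rbpj+/+ replicate 2 and Rbpj-/- replicate 1 are the lowest of their groups in every complex, and on the right the groups lie closer.

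The probes of the chain genes are bright, with a median level of 6.70, which is above that of 95.2% of all tested genes. Their intensities before any scaling had medians between 7712 and 12894 on the 7 arrays. On the percentile shift the log2 fold change of the other genes on the array fell with the level above a level of 0, and below it there was no such order (-0.22 from -2 to -1 and -0.09 from -1 to 0). The median of the other genes was -0.02 for 2240 genes at levels from 0 to 1, -0.26 for 653 genes from 6 to 7, -0.36 for 443 genes from 7 to 8 and -0.65 for 50 genes from 9 to 10. The members in the same ranges had medians of -0.33 (28 genes, from 6 to 7) and -0.52 (24 genes, from 7 to 8), which is lower than that of the other genes in both ranges. Of the other genes, 31.1% and 33.6% were called in these ranges, 26.0% and 31.6% as lower, beside 0 of 28 and 6 of 24 members. After quantile normalization the medians of the other genes were -0.01 and -0.03 in these ranges and those of the members -0.04 and -0.19.

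**Figure D3:**
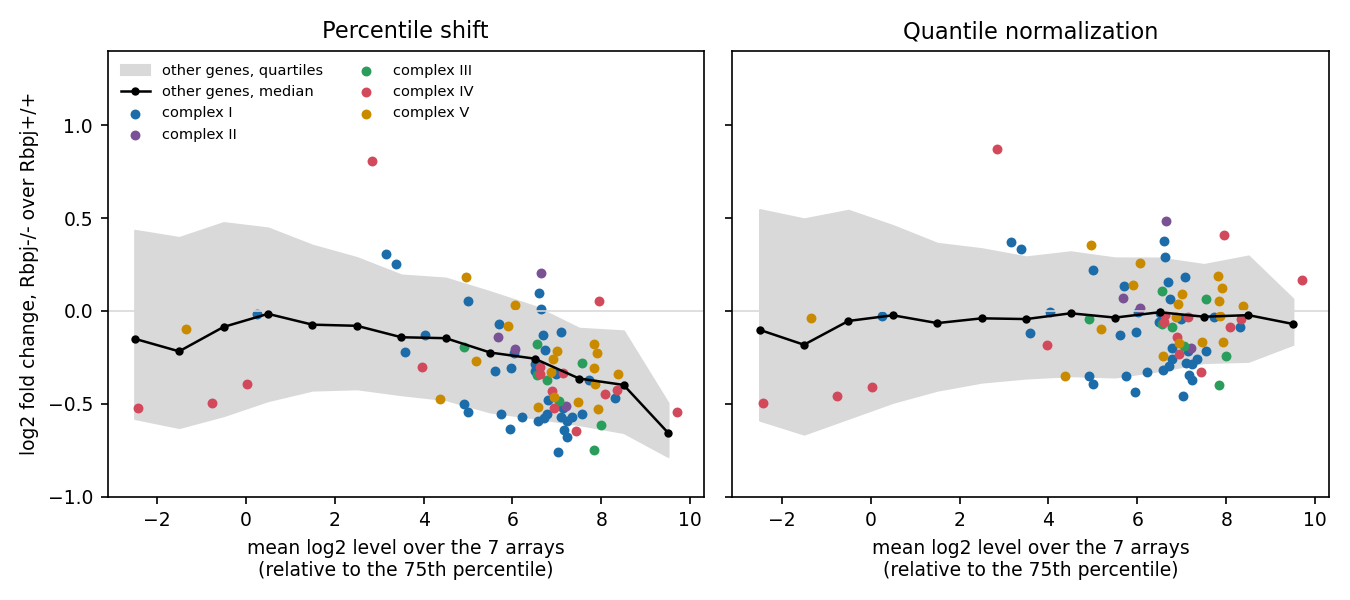
Log2 fold change (Rbpj-/- over Rbpj+/+) against the mean log2 level over the 7 arrays. Coloured points are the 82 chain genes by complex, the black line gives the median of all other genes in steps of 1 log2 unit and the grey band their quartiles. With the percentile shift (left) the black line falls from -0.02 at levels of 0 to 1 to -0.65 at the brightest step drawn, and with quantile normalization (right) it lies between -0.18 and -0.01.

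Complex I, with 37 of the 82 tested genes, carried 5 of the 9 calls (13.5% of its genes, beside 19.6% of all genes called lower). Its 37 tested genes had a median log2 fold change of -0.37 with 5 called lower (Ndufa5, Ndufv3, Ndufa1, Ndufb2 and Ndufb5) and 13 lower at an unadjusted p under 0.05. All 5 encode accessory subunits, which surround the catalytic core and are needed for its assembly or stability. Only 7 of the 37 genes encode the core, so most calls would fall outside it in any case. After quantile normalization the median was -0.12, and Ndufa5 and Ndufa1 were called lower. The lowest value belonged to Ndufa5, an accessory subunit of the arm that reaches into the matrix.

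Ndufa5 lies on chromosome 6, and its levels were 7.17, 7.11, 7.68 and 7.47 in Rbpj+/+ and 6.21, 6.70 and 6.89 in Rbpj-/- liver. All 3 Rbpj-/- arrays lay below all Rbpj+/+ arrays. The log2 fold change was -0.76 ± 0.24 (SE; limma, adjusted p = 0.0487), which is 59.2% of the Rbpj+/+ value, and an exact two-sided permutation test gave p = 0.0286, the smallest that the 35 possible splits allow. It was -0.46 after quantile normalization (limma, adjusted p = 0.0943), again without overlap, and 14 of 19 settings called it. Its second probe had a log2 fold change of -0.41 and was not called.

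Ndufa1, on the X chromosome, encodes a small membrane subunit that complex I needs for assembly. Its levels were 7.38, 7.15, 7.63 and 7.60 in Rbpj+/+ and 6.54, 6.89 and 6.97 in Rbpj-/- liver. The groups did not overlap, and the log2 fold change was -0.64 ± 0.21 (SE; limma, adjusted p = 0.0535). After quantile normalization it was -0.34 (limma, adjusted p = 0.0991), and the groups were apart there too.

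Ndufv3, a subunit at the site where NADH is oxidised, had levels of 7.49, 7.19, 7.75 and 7.66 in Rbpj+/+ and 6.51, 6.82 and 7.21 in Rbpj-/- liver. Rbpj-/- replicate 3 reached the lowest Rbpj+/+ array, and the log2 fold change was -0.68 ± 0.23 (SE; limma, adjusted p = 0.0652). Quantile normalization gave -0.37 (limma, adjusted p = 0.145). Its 3 probes ranged from -0.83 to -0.23, and 2 of them were called.

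Ndufb2 and Ndufb5 are membrane arm subunits whose adjusted p was just under the threshold. Ndufb2 had levels of 6.54, 5.61, 6.43 and 6.31 in Rbpj+/+ and 5.69, 5.62 and 5.45 in Rbpj-/- liver, so that Rbpj+/+ replicate 2 lay among the Rbpj-/- values. The log2 fold change was -0.63 ± 0.25 (SE; limma, adjusted p = 0.0990). Ndufb5 is the chain gene whose probes were called in opposite directions. The brighter probe, at chr3:32650097-32650156 of mm9, gave 5.90, 5.73, 6.28 and 6.05 in Rbpj+/+ and 5.15, 5.43 and 5.73 in Rbpj-/- liver (log2 fold change -0.55; limma, adjusted p = 0.0980), with Rbpj-/- replicate 3 at the level of Rbpj+/+ replicate 2. The dimmer probe, at chr3:32650236-32650295, gave 1.57, 0.40, 0.44 and 1.59 in Rbpj+/+ and 1.88, 1.80 and 2.0 in Rbpj-/- liver. It was higher without overlap, with a log2 fold change of 0.90 (limma, adjusted p = 0.0874), so that the array gives no single direction for this gene.

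The catalytic core of complex I, the 7 nuclear subunits that hold the flavin and the iron-sulfur clusters, had no call by limma (1 of 7 at an unadjusted p under 0.05), with a median log2 fold change of -0.22 and, after quantile normalization, of -0.11. Ndufs1, the largest of them, had levels of 5.76, 5.27, 5.94 and 5.93 in Rbpj+/+ and 5.31, 5.70 and 5.95 in Rbpj-/- liver. These values overlapped throughout (log2 fold change -0.07, 95% interval -0.63 to 0.48; limma, adjusted p = 0.85), and quantile normalization gave 0.13. Ndufv1, which binds NADH, had a log2 fold change of -0.13, with a 95% interval from -0.65 to 0.39, and of 0.16 after quantile normalization. Ndufa11, an accessory subunit of the membrane arm, had a positive log2 fold change of 0.25 ± 0.22 (SE), which limma did not call.

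Complex II, which is at once an enzyme of the citric acid cycle, had 4 tested genes and no call by limma (1 lower at an unadjusted p under 0.05). The flavoprotein gene Sdha had levels of 5.86, 5.28, 5.83 and 6.01 in Rbpj+/+ and 5.23, 5.73 and 5.85 in Rbpj-/- liver. The groups overlapped, and the log2 fold change was -0.14, or 0.07 after quantile normalization. The iron-sulfur subunit gene Sdhb had 7.30, 7.16, 7.73 and 7.54 in Rbpj+/+ and 6.67, 6.95 and 7.14 in Rbpj-/- liver. Its groups were apart on this scale only (log2 fold change -0.51 ± 0.22, SE; limma, adjusted p = 0.116), and the value was -0.20 after quantile normalization. Sdhd, a membrane anchor, pointed the other way, with log2 fold changes of 0.20 (limma, adjusted p = 0.580) and, after quantile normalization, 0.48 (adjusted p = 0.102), where the groups did not overlap. The 4 genes thus had no common direction, with medians of -0.17 and 0.04.

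Complex III had 2 calls among 8 genes, Uqcr11 and Uqcrq, and a median of -0.36 (-0.08 after quantile normalization, with no call by limma and 0 genes at an unadjusted p under 0.05). Both encode small subunits without a redox group. Uqcr11 had levels of 7.92, 7.88, 8.52 and 8.32 in Rbpj+/+ and 7.08, 7.50 and 7.65 in Rbpj-/- liver, without overlap. The log2 fold change was -0.75 ± 0.24 (SE; limma, adjusted p = 0.0519), and both of its probes were called lower (-0.75 and -0.73). Uqcrq had 8.35, 8.09, 8.40 and 8.20 in Rbpj+/+ and 7.46, 7.76 and 7.72 in Rbpj-/- liver, again without overlap. It had the smallest adjusted p of the chain genes (log2 fold change -0.61 ± 0.18, SE; limma, adjusted p = 0.0425), at 65.4% of the Rbpj+/+ value. Quantile normalization gave -0.40 (limma, adjusted p = 0.140) for Uqcr11 and -0.24 (adjusted p = 0.236) for Uqcrq. Of the subunits that carry electrons or lie at the core, the Rieske iron-sulfur protein gene Uqcrfs1 had a log2 fold change of -0.18 (95% interval -0.65 to 0.29, and 0.11 after quantile normalization) and Uqcrc1 one of -0.20 (95% interval -0.73 to 0.34).

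Complex IV, cytochrome c oxidase, had 2 genes called lower, Cox6c and Cox6a1, and the highest value of all chain genes, Cox7a1. The median of its 15 tested genes was -0.43, and -0.08 after quantile normalization. Cox6c had levels of 7.75, 7.39, 7.99 and 7.74 in Rbpj+/+ and 6.98, 7.01 and 7.24 in Rbpj-/- liver, without overlap. The log2 fold change was -0.64 ± 0.20 (SE; limma, adjusted p = 0.0495) and, after quantile normalization, -0.33 (adjusted p = 0.139), with the groups apart on both scales.

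Cox6a1, the form of subunit 6a used in liver and most tissues, changed direction with the scaling. On the percentile shift its levels were 9.94, 9.64, 10.02 and 10.12 in Rbpj+/+ and 9.21, 9.39 and 9.57 in Rbpj-/- liver. The groups did not overlap, with a log2 fold change of -0.54 ± 0.20 (SE; limma, adjusted p = 0.0766). After quantile normalization the values were 9.73, 9.58, 9.50 and 9.73 in Rbpj+/+ and 9.68, 9.89 and 9.85 in Rbpj-/- liver, and the log2 fold change was 0.17 (limma, adjusted p = 0.417). The intensities before scaling overlapped, from 59765 to 100744 in Rbpj+/+ and from 84587 to 89554 in Rbpj-/- liver. It is the brightest of the chain genes, and no direction can be given for it.

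Several subunits of complex IV exist in a common form and in a form typical of heart, skeletal muscle or other tissues. Cox7a1 is the form of subunit 7a known from heart, skeletal muscle and brown fat, and Cox7a2 the form found in liver. Cox7a1 had levels of 2.09, 2.22, 3.30 and 2.37 in Rbpj+/+ and 2.77, 3.52 and 3.61 in Rbpj-/- liver. Rbpj+/+ replicate 3 lay among the Rbpj-/- values, and the log2 fold change was 0.81 ± 0.34 (SE; limma, adjusted p = 0.113). The array's design gives its only probe no place in the genome. Quantile normalization gave 0.87 ± 0.31 (SE; limma, adjusted p = 0.0884), and 9 of 19 settings called it higher, with values between 0.65 and 1.07. Cox7a2 had 7.20, 6.59, 7.22 and 7.27 in Rbpj+/+ and 6.43, 6.65 and 6.85 in Rbpj-/- liver, with overlap and no call (log2 fold change -0.43; limma, adjusted p = 0.205).

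The difference between the Cox7a1 and Cox7a2 probes within each array, which no scaling by a constant can move, was compared for 8 such pairs of isoforms. For Cox7a1 against Cox7a2 it was 1.24 log2 units higher in Rbpj-/- liver, and the groups did not overlap. The exact permutation test gave p = 0.0571, or 0.457 after Benjamini-Hochberg adjustment over the 8 pairs, and after quantile normalization the change was 1.01. The other 7 pairs overlapped and differed by -0.13 to 0.20, and by -0.66 (Cox6a2 with Cox6a1) to 0.12 after quantile normalization. They were Ndufa4l2 with Ndufa4, Cox4i2 with Cox4i1, Cox6a2 with Cox6a1, Cox6b2 with Cox6b1, Cox7a2l with Cox7a2, and Atp5g2 and Atp5g3 with Atp5g1. The Cox6a2 probe was dim, with intensities of 11.6 to 27.2 before scaling. Of 6 genes of striated muscle, Ckm, Acta1, Myh4, Tnnt3 and Actn3 were below the filter, and Pvalb was lower in Rbpj-/- liver (log2 fold change -1.06; limma, adjusted p = 0.00979). Of the brown fat genes Ucp1 and Dio2 were below the filter too, Cidea was well above background on the 3 Rbpj-/- arrays alone and Elovl3 on the 4 Rbpj+/+ arrays alone. Cox8b, the form of subunit 8 of those tissues, was well above background on no array.

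The other isoforms of complex IV were not called by limma (2 of them, Cox4i2 and Cox7b, at an unadjusted p under 0.05). Cox4i2, the form known from lung, had a log2 fold change of -0.50 and Cox6a2, the muscle form, one of -0.52. Both probes were dim, with intensities before scaling of 43.6 to 68.3 for Cox4i2 and 11.6 to 27.2 for Cox6a2. Cox6b2, the testis form, had -0.39 beside -0.30 for Cox6b1, and Cox7b and Cox8a had -0.52 and -0.45. The main form Cox4i1 had 8.46, 8.21, 8.75 and 8.68 in Rbpj+/+ and 7.82, 8.16 and 8.32 in Rbpj-/- liver, with overlap (log2 fold change -0.43; limma, adjusted p = 0.181). Cox5a had one of 0.05 (95% interval -0.54 to 0.65). After quantile normalization it was 0.41 (limma, adjusted p = 0.133), with all Rbpj-/- arrays above all Rbpj+/+ arrays, and its probe too has no place in the genome by the array's design. Cox7a2l, which joins complexes into supercomplexes and is no subunit in the strict sense, had -0.30, while its 3 probes ranged from -0.30 to 0.56. Ndufa4, which the name rule puts in complex I although it is now counted with complex IV, had -0.21 (0.06 after quantile normalization), and its relative Ndufa4l2 had -0.01.

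Complex V had no call by limma among 18 genes by the brightest probe (3 lower at an unadjusted p under 0.05). The median was -0.29, and -0.00 after quantile normalization with 9 values on each side of 0. With the mean of a gene's probes, 2 of the 18 were called lower. Dimmer probes were called lower for some of its genes, such as the second probe of Atp5h (-0.52). For the catalytic beta subunit gene Atp5b the levels were 8.60, 8.21, 8.74 and 8.55 in Rbpj+/+ and 8.05, 8.21 and 8.28 in Rbpj-/- liver. Rbpj+/+ replicate 2 lay among the Rbpj-/- values (log2 fold change -0.34, 95% interval -0.78 to 0.10, and 0.03 after quantile normalization). The alpha subunit gene Atp5a1 had -0.33 (95% interval -0.80 to 0.14). Atp5g1, Atp5g2 and Atp5g3 encode the same ring subunit with different import signals, and their values were -0.18, -0.23 and -0.31, which turned to 0.19, 0.13 and 0.06 after quantile normalization. The lowest values, -0.53 for Atp5e, -0.52 for Atp5j and -0.49 for Atp5h, did not pass (limma, adjusted p = 0.151, 0.104 and 0.114). The rule also took in a pseudogene, Atp5c1-ps (0.18), and genes now named Dmac2l (on the array Atp5s, -0.10) and Dmac2 (on the array Atp5sl, -0.47), which are no subunits of the synthase.

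**Figure D4:**
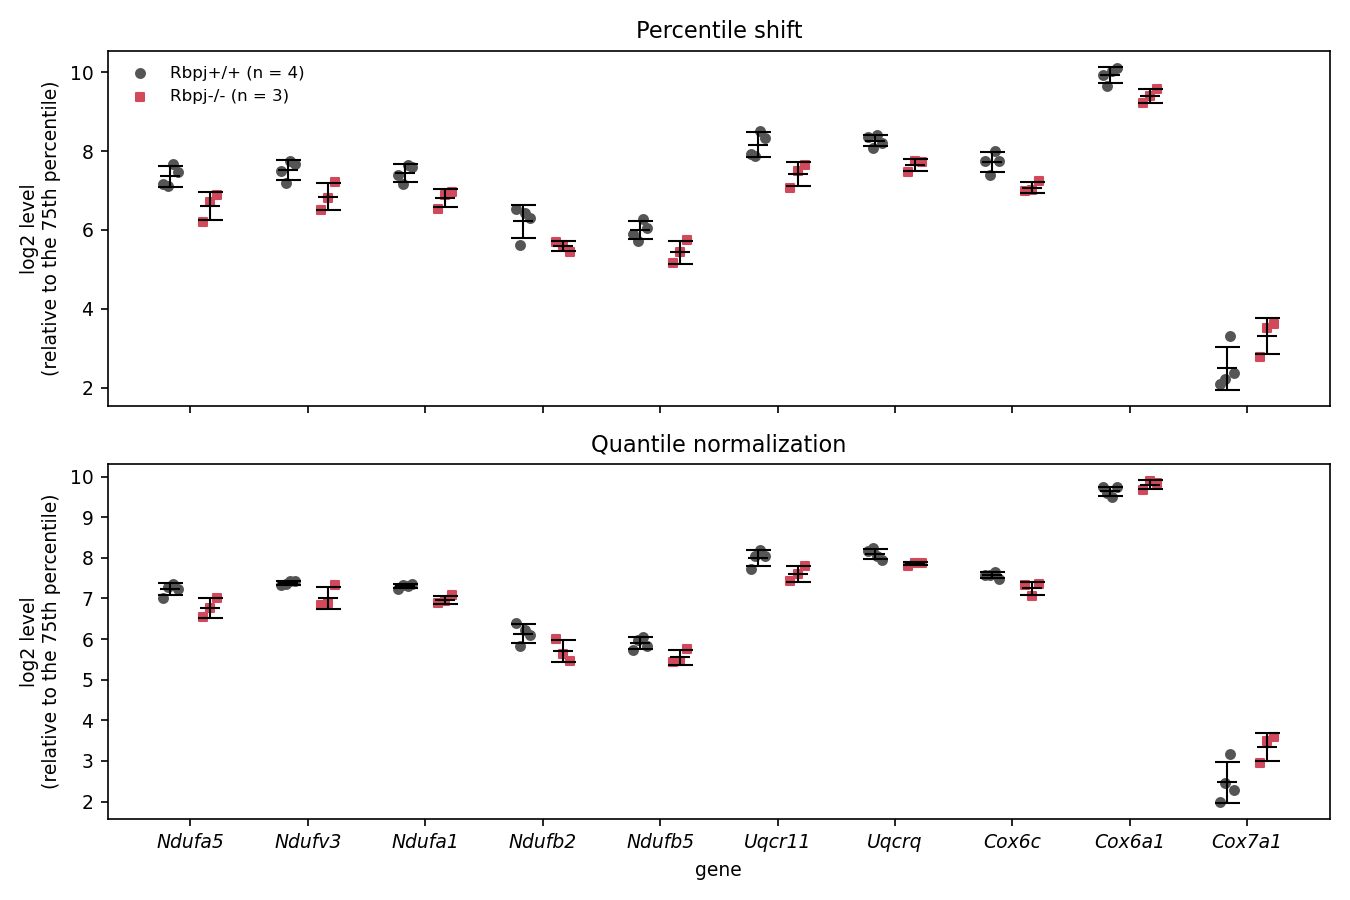
Log2 level on each array, relative to the 75th percentile, of the 9 genes called lower on the percentile shift and of Cox7a1. Circles are the 4 Rbpj+/+ and squares the 3 Rbpj-/- animals, with mean and SD as black bars, on the percentile shift (top) and after quantile normalization (bottom). Cox6a1 lies lower in Rbpj-/- liver at the top and slightly higher at the bottom, and Cox7a1 is the only one of the 10 that lies higher on both scales.

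Genes with several probes were compared with themselves. There were 23 such genes with 55 tested probes, and the log2 fold changes of a gene's probes lay within a median of 0.25 of each other. The range was over 0.5 for 3 of them. Of the 55 probes, 14 were called lower and 1 higher. For 6 of the 23 genes the brightest probe and the others differed on the call, so the counts by complex depend on the choice of probe. With the mean of a gene's probes, 12 of the 82 genes were called lower (14.6%, beside 19.3% of all genes). The brightest probe is placed by the array's design on a chromosome other than the gene's own for 9 of the 82 genes and nowhere for 6, among them Cox7a1, Cox5a and Uqcrc1. Chain genes have many processed pseudogenes, and a signal on a probe placed on another chromosome cannot be assigned to the gene alone. For the 6 probes without a place, the array's design gives no position by which to judge this.

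Promoters of the chain genes were read from RefSeq (GRCm38.p6), as 250 bases before and 50 after each start, for 69 of the 85 genes with 75 promoters. Motifs were searched on both strands, and none of them contains another. Nuclear respiratory factor 1 (NRF1), which takes its name from this role, binds GCGCA and GCGC with any base (N) between them, and this was in 18 of the 75 (24.0%) beside 4.60% of all 32851 promoters. The ETS motif CCGGAAG, which GABPA binds, was in 16 (21.3%, beside 8.86%), and the YY1 motif AAGATGGC in 12 (16.0%, beside 2.75%). The Sp motif GGGCGG was in 29 (38.7%, beside 35.7%). The TATA motif TATAAA was in 8 (10.67%, beside 13.6%), and the RBPJ motif GTGGGAA in 4 (5.33%, beside 6.38%). Of the 9 genes called lower, 7 were among the 69, with 8 promoters. Of these 8, 3 held the NRF1 motif, 2 the ETS motif and 0 the YY1 motif. The 2 promoters of Ndufa5 overlap and hold the same NRF1 site, so these 3 belong to Ndufa5 and Cox6a1 alone. That of Ndufb5 held none of the 6 motifs.

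Shown are the 150 bases before the start of 3 genes called lower, which differ in these motifs, and of Cox7a1, the gene with the highest value. The 3 were picked and do not stand for all genes called lower, so no contrast with Cox7a1 follows from them. Capitals mark the motifs named above, in either orientation. The stretches are Ndufa5 at chr6:24527691-24527840 (minus strand, the upstream one of 2 starts), Uqcr11 at chr10:80406822-80406971 (minus strand), Cox6a1 at chr5:115348959-115349108 (minus strand) and Cox7a1 at chr7:30184021-30184170 (plus strand).
Ndufa5: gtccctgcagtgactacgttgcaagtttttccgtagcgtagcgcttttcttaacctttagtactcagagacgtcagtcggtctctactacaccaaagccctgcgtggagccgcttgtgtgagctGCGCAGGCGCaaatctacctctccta
Uqcr11: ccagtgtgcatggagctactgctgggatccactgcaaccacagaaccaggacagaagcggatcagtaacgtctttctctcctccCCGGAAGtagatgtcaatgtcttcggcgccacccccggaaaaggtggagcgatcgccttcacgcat
Cox6a1: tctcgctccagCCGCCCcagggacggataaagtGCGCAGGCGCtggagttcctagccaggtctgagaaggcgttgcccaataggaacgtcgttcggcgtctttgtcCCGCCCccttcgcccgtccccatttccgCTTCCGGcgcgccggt
Cox7a1: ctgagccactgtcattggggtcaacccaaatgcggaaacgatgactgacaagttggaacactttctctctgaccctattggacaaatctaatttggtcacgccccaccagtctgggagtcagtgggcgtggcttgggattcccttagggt
Ndufa5 holds the NRF1 motif, Uqcr11 the ETS motif, and Cox6a1 both together with Sp motifs, while the Cox7a1 stretch holds none of the 6 in these letters.

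Other genes of the mitochondrion did not all follow the chain. The array has no symbols of mitochondrially encoded genes, but 6 tested probes are placed on the mitochondrial chromosome, which were found by their position after the data were seen. Of these, 4 were called lower, with a median log2 fold change of -0.55, and 5 were lower without overlap between the groups. Over all genes these shares were 19.6% and 21.2%, and 31.6% of the other genes at levels from 7 to 8 were called lower. By the file's descriptions they include NADH dehydrogenase subunit 2 (-0.65; limma, adjusted p = 0.0404), subunit 4 (-0.52, adjusted p = 0.0625) and cytochrome b (-0.55, adjusted p = 0.0703). After quantile normalization the median was -0.29, and the adjusted p of the 6 probes by limma ranged from 0.122 to 0.636.

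The 13 genes of the citric acid cycle had a median of 0.13, and of 0.35 after quantile normalization. On the percentile shift 1 was called higher, Idh3a (0.76; limma, adjusted p = 0.0929), which encodes a subunit of the NAD-dependent isocitrate dehydrogenase. After quantile normalization 4 were called higher, which are Idh3a (0.86), Suclg1 (0.85), Mdh2 (0.68) and Fh1 (0.60). Of all genes, 14.6% were called higher on the percentile shift and 16.6% after quantile normalization. Carriers and porins, which exchange ATP, phosphate and metabolites with the cytosol, had 2 of 8 genes called higher and a median of 0.14, and 4 of 8 and 0.36 after quantile normalization. On the percentile shift these were Slc25a4, an ADP/ATP carrier typical of heart and muscle (1.59; limma, adjusted p = 0.00782), and Ucp2, an inner membrane carrier (1.21, adjusted p = 0.0209). Cytochrome c1 (Cyc1, 0.24), cytochrome c (Cycs, 0.41) and Ndufab1 (0.12), chain genes outside the name rule, were not called on this scale, and Cycs was called higher after quantile normalization (0.70; limma, adjusted p = 0.0236).

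Of 40 tested assembly factors, which build the complexes but do not stay in them, 4 were called lower and 1 higher, with a median of -0.12. Lower were Sco2 (-1.24; limma, adjusted p = 0.0211), which delivers copper to complex IV, Uqcc3 (-1.02, adjusted p = 0.0115), a complex III factor, and the complex I factors Ndufaf1 (-0.76) and Ecsit (-0.57). Nubpl, which serves iron-sulfur clusters of complex I, was higher (1.04, adjusted p = 0.0471). Of 14 regulators of mitochondrial biogenesis 4 were called lower on each scale. Ppargc1b, a coactivator (-0.91), Tfb2m and Polrmt, which transcribe the mitochondrial DNA (-0.62 each), and Gabpb1, the partner of the ETS factor GABPA (-0.52), were lower on the percentile shift. After quantile normalization Ppargc1b was not called (limma, adjusted p = 0.141) and Gabpa itself was (-0.54, adjusted p = 0.0645). Nrf1 (-0.25), Tfam (0.28) and Ppargc1a (0.69) were not called. Of 76 tested genes of the mitochondrial ribosome, 3 were lower and 2 higher, with a median of -0.18. These lists were not tested as sets, and the values stand beside -0.13 for the median of all genes. The counts stand beside 19.6% of all genes called lower and 14.6% called higher on the percentile shift. After quantile normalization these shares were 15.2% and 16.6%.

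**Figure D5:**
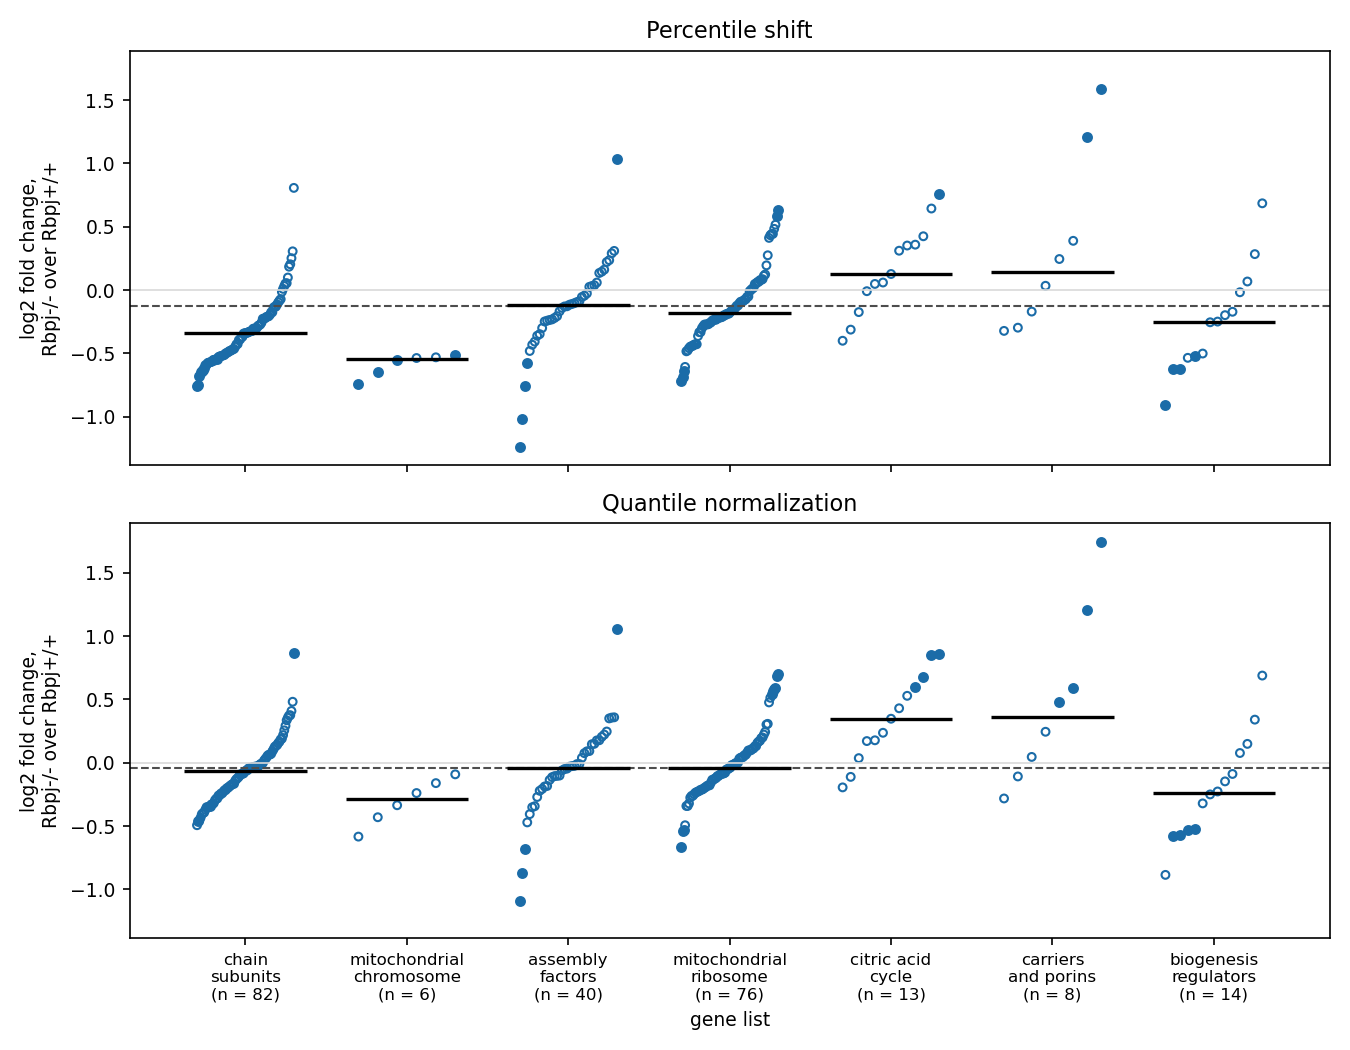
Log2 fold changes (Rbpj-/- over Rbpj+/+) of the 82 chain genes, the 6 probes on the mitochondrial chromosome, and the genes of 5 mitochondrial lists, with the percentile shift (top) and quantile normalization (bottom). Filled points passed limma at an adjusted p under 0.1, black bars are list medians and the dashed line is the median of all tested genes. The medians of the citric acid cycle (0.13) and of carriers and porins (0.14) lie above the dashed line at the top, and those of the chain (-0.34) and the mitochondrial chromosome (-0.55) below it.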

How the data were processed

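RNA from whole liver of 7 mice was hybridised to Agilent arrays designed on mm9, with Cy3. As intensity values the authors deposited the background-subtracted signals of Feature Extraction 10.7.3.1, not normalized between arrays. Their deposited log2 values of the series matrix follow quantile-normalized, centred intensities (r = 1.00), although the methods state a 75th percentile shift. Here the intensities were used. Control spots and spots marked as outliers were dropped (146 probe values), duplicate spots were averaged as log2 values, and each array's 75th percentile was subtracted. Limma 3.58.1 (R 4.3.3) compared the genotypes over 24548 probes, with Benjamini-Hochberg adjustment and a threshold of 0.1, in place of the methods' shrinkage t. The brightest tested probe stood for its gene. Names were matched to RefSeq by accession for 113 and by symbol for 4 of 117 probes. Each array is 1 animal, and precision is limited by their number. The rule for genes given with values took core subunits, isoforms with a tissue-typical partner, the 2 called genes with the highest and the 2 with the lowest values per complex, and genes with oppositely called probes. Others, such as Ndufa1, Ndufa11, Sdhd, Atp5e, Atp5h, Atp5j and the genes of the lists, were named after their values were seen. The result for 1 member is not given by name here. Members and lists were chosen with earlier results of these data known. The alternatives changed the scaling, the background correction, the filters, the variance model, the threshold, the source of the values and the probe of a gene, or left out each animal. The steps were tested on simulated data. Python 3.11.15, pandas 2.3.3 and matplotlib 3.10.9 drew tables and figures.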

Additional observations from a re-analysis of the deposited data

Results flagged for a closer look

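Among the 4 Rbpj+/+ arrays, replicate 2 stood far below the other 3 for 5 of 35 named genes, by Dixon's test at the 95% level. Its level was 6.66 for Atp5a1, 7.26 for Cox5a, 6.59 for Cox7a2, 6.45 for Cox7a2l and 6.31 for Ndufv1. Chance flags about 1 in 20 groups, and the genes share the array, so these are not independent. The same array had brighter dim probes, and whether this bears on the values was not tested.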

How the results depend on the processing

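The number of chain genes called lower was 9 as reported (11% beside 19.6% of all genes). It was 2 after quantile normalization (beside 15.2%), 19 with the percentile over detected probes (23.2% beside 17.3%), 7 with normexp (beside 23.2%), 0 without a filter (beside 1.89%) and 18 with detection on all 7 arrays (22% beside 22.8%). It was 23 with limma-trend (28.0% beside 20.5%), 37 with array weights (45.1% beside 26.1%), 3 at a threshold of 0.05 (beside 12.7%) and 1 with the series matrix (beside 15.0%). It ranged from 0 to 37 as each animal was left out. The number called higher, 0 as reported, was 1 with quantile normalization, the percentile over detected probes, detection on all 7 arrays, limma-trend, array weights and the series matrix (Cox7a1 in each), and 2 with normexp. It ranged from 0 to 1 as each animal was left out. The median of the chain genes minus that of all genes was -0.21, and it was -0.0251 after quantile normalization, -0.0223 with the series matrix, -0.07 with normexp and -0.08 without a filter. It stayed between -0.31 and -0.13 as each animal was left out. Cox6a1 turned to 0.17 with quantile normalization and to 0.17 with the series matrix, and Ndufb5 turned to 0.17 with the mean of its probes. Of the 82 genes 16 turned from a negative to a positive value under quantile normalization, of which only Cox6a1 had been called. The cause of these changes of direction and of the counts was not tested. A change of the filter alters both the number of probes in the adjustment and the limma fit itself. Chain genes at an unadjusted p under 0.05 by limma were 24 as reported, 7 without a filter and 27 with detection on all 7 arrays. No paired analysis was possible because the replicate numbers were given here in order of accession and nothing in the labels ties equal numbers to a litter, batch or day.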
